A study of Mus musculus with 29 samples.

Results

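Gene expression in tissue labelled hypothalamus was compared between 3 weeks of age and postnatal day 5 (P5) by paired-end RNA sequencing of whole tissue, with 3 libraries at 3 weeks and 3 at P5, out of 29 libraries that follow the tissue over 9 ages up to 24 months. The libraries were taken by their age label alone, and apart from the library titles age is the only label that differs between the groups. Titles begin with R at P5 and with th at 3 weeks. What this form of title stands for is not given, and it cannot be told apart from age. Mice of both groups were C57BL/6, wild type and labelled male, with no treatment named, and per the labels were kept singly under a light-dark cycle with free food and water before the tissue was excised near the middle of the light phase. Replicates were read as separate mice. Since the labels name neither litter nor cage, the p-values cover only how far libraries of the same age spread. In the main fit that spread was estimated over 28 libraries of the 9 ages, not from the libraries compared here alone. The description below covers 67 lists of gene families and pathways and sets aside separate lists of myelin, proliferation and immature neuron genes. The 67 lists hold 1515 genes, of which 1503 had enough counts to be tested; 13 of the 1515, such as Tubb3 and Stmn2, also stand on a list set aside and are counted in their families.

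The hypothalamus is the part of the ventral forebrain that controls pituitary hormone release, feeding, body temperature, sleep and reproduction, largely through small groups of neurons that release peptides. In rodents the weeks from the first days of life to weaning are known as a time of synapse formation, of exchange between subunits of transmitter-gated channels, and of a change in fuel from the fat and ketone bodies of milk to glucose. Axon guidance molecules, embryonic tubulins and the proteoglycans of the juvenile matrix are known for high levels in the immature brain.

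The 6 libraries held 28775032 to 35101585 gene counts each, so that 3 counts made 0.0838 to 0.108 CPM, the usual unit of counts scaled to a common library total. Of 16916 genes tested with edgeR's quasi-likelihood test and Benjamini-Hochberg adjustment, 59.0% were called at an adjusted p below 0.05, 29.8% higher and 29.3% lower at 3 weeks, 9.74% at least 2-fold higher and 9.07% at least 2-fold lower, and 67.0% had libraries that did not overlap between the ages. A list with shares near these values is therefore like the rest of the genes, and the counts below are read against them. The median log2 fold change over all genes was -0.01. P5 replicates 1 and 2 held Xist at 746 and 791 CPM and no Y-linked counts, although they are labelled male, while P5 replicate 3 and the 3-week libraries held Y-linked counts and Xist at no more than 1.19 CPM. In an alternative fit, named below as P5 replicate 3 alone, that library was the only one on the P5 side. With 1 P5 library in place of 3, calls can be lost for that reason alone. Fits with P5 replicate 1 or 2 alone were not run. A call lost in this fit, here and below, therefore cannot be put down to sex or to the other P5 libraries. The tissue label reads hypothalamus, but the titles of most libraries, among them all 6 compared here, carry th, tha or thal; the label was followed, and the labels do not tell whether thalamus was included. Summed markers of thalamus, which lies next to the hypothalamus, ranged from 1230 to 1985 CPM at 3 weeks and from 1110 to 1859 CPM at P5, and those of striatum from 389 to 973 CPM at 3 weeks and from 441 to 658 CPM at P5. Changes in whole tissue cannot tell fewer cells of a type from less RNA per cell. Of the 361 genes named below, 93 have an exon that overlaps an exon of another gene in the GENCODE annotation, over any length. The strand setting of the counting is not given in the sources used here. How reads in the shared stretches were counted is therefore not known.

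**Figure D1:**
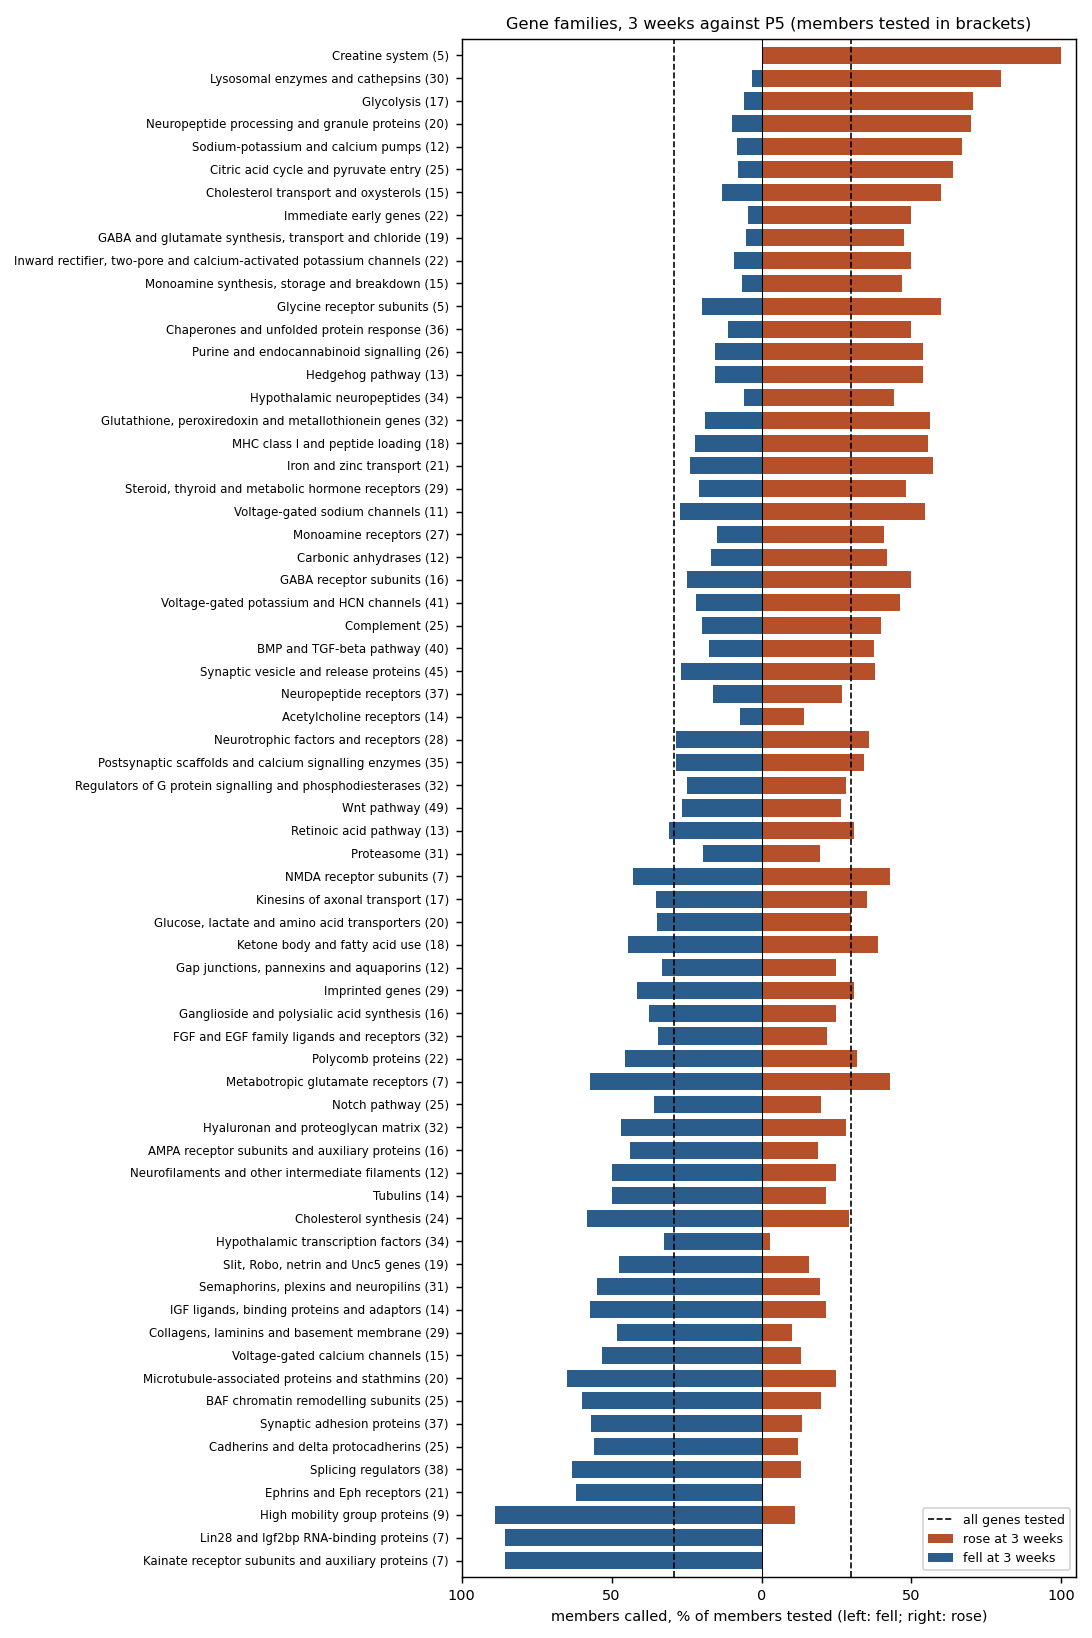
Share of the tested members of each of the 67 families that fell (bars to the left) or rose (bars to the right) at 3 weeks against P5, in % of members tested, at an adjusted p below 0.05 in edgeR's test. Dashed lines mark the shares over all 16916 genes (29.3% fell, 29.8% rose). The creatine system and the lysosomal enzymes reach the farthest right, and kainate receptors, Lin28 and Igf2bp proteins and high mobility group proteins the farthest left.

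Most hypothalamic neuropeptide genes that were called were higher at 3 weeks. Of 34 tested, 15 rose, 2 fell and 17 were not called, with a median log2 fold change of 0.65. The 2 that fell were Nmb and Kiss1; none fell without P5 replicate 1, P5 replicate 2 or 3-week replicate 3 or with P5 replicate 3 alone, and 1 fell without 3-week replicate 1 or 2. Oxt, which encodes oxytocin, the peptide of milk ejection and social behaviour, had 105.1, 195 and 119.9 CPM at 3 weeks, against 16.7, 17.6 and 13.3 CPM at P5, a log2 fold change of 3.14 ± 0.49 (edgeR adjusted p = 1.14e-05). Hcrt encodes orexin, the peptide that keeps animals awake, and had 83.5, 148 and 117 CPM at 3 weeks, against 16.5, 11.8 and 12.2 CPM at P5, a log2 fold change of 3.11 ± 0.58. Cartpt, a feeding-related peptide gene, had 40.8, 58.0 and 44.8 CPM at 3 weeks, against 5.82, 10.3 and 6.17 CPM at P5 (2.68 ± 0.25). Values in brackets, here and below, are log2 fold changes, 3 weeks over P5. The ± value throughout is an approximate standard error and not an estimate of the fit itself. It is the absolute log2 fold change divided by the square root of the F value of edgeR's test. In all 3 the lowest 3-week library lay several-fold above the highest P5 library. Each of the 3 was highest in 3-week replicate 2, as were Tac2, Pomc, Avp and Trh below, but not Pmch, Vip or Crh. That library was the lowest at 3 weeks in summed thalamus markers, at 1230 CPM, against 1680 and 1985 CPM in the other 3-week libraries. The part of these markers was not tested. Tac2, which encodes neurokinin B, a peptide of the neurons that drive gonadotropin-releasing hormone, had 29.6, 32.3 and 23.1 CPM at 3 weeks, against 3.21, 4.37 and 3.13 CPM at P5 (2.98 ± 0.28). Pmch encodes melanin-concentrating hormone, a promoter of feeding, and had 35.5, 51.5 and 52.1 CPM at 3 weeks, against 12.7, 9.26 and 11.1 CPM at P5 (2.07 ± 0.36). Pomc, the precursor of the melanocortin peptides that curb feeding, had 14.98, 43.8 and 30.4 CPM at 3 weeks, against 10.1, 6.93 and 4.64 CPM at P5 (2.05 ± 0.42). No library of one age lay among those of the other for these 3 genes. Pomc was lowest at 3 weeks in replicate 1, and its log2 fold change was 2.67 with P5 replicate 3 alone.

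Avp encodes vasopressin, the antidiuretic peptide, and had 264, 405 and 183 CPM at 3 weeks, against 101, 126 and 74.7 CPM at P5, a log2 fold change of 1.49 ± 0.54 (edgeR adjusted p = 0.0220). That call was lost without P5 replicate 1, without P5 replicate 3, without 3-week replicate 2 and with P5 replicate 3 alone. Trh, the thyrotropin-releasing hormone gene, had 66.6, 117 and 80.6 CPM at 3 weeks, against 35.3, 36.9 and 24.5 CPM at P5 (1.45 ± 0.30), and Vip, a peptide gene of the circadian pacemaker, had 4.84, 4.88 and 5.39 CPM at 3 weeks, against 2.07, 1.58 and 1.79 CPM at P5 (1.47 ± 0.40), with the call for Vip lost when P5 replicate 3 stood alone. Crh, which starts the stress hormone cascade, had 10.4, 10.1 and 5.39 CPM at 3 weeks, against 4.11, 6.24 and 3.49 CPM at P5 (0.90 ± 0.34), and its libraries overlapped. Its call was lost without P5 replicate 1 or 3 and without 3-week replicate 1 or 2. The agouti-related peptide and neuropeptide Y genes of the hunger neurons were not called, with log2 fold changes of 0.74 ± 0.33 for Agrp and -0.53 ± 0.30 for Npy. Gal, Sst and Ghrh, which encode galanin, somatostatin and growth hormone-releasing hormone, had 0.49 ± 0.23, 0.30 ± 0.21 and 0.34 ± 0.32 and were not called; with P5 replicate 3 alone Ghrh had a log2 fold change of 1.16. Kiss1, the kisspeptin gene of puberty, had 0.271, 0.650 and 0.446 CPM at 3 weeks, against 1.64, 1.27 and 0.307 CPM at P5, whose ranges overlap. Its log2 fold change was -1.23 ± 0.51, and 0.54 with P5 replicate 3 alone.

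The sequence upstream of the peptide genes was read next, whatever their change. Of the 35 listed peptide genes, 28 have an entry among the RefSeq promoters of GRCm38.p6, with 31 windows of 250 bases before a start. Motifs searched on both strands were the cAMP response element TGACGTCA, the nuclear receptor half-site AGGTCA or TGACCT, and the E-box CACGTG. The cAMP response element lay in 2 of the 31 peptide windows (6.45%), those of Cartpt and Sst, and in 1.55% of all 32851 windows. The half-site lay in 7 (22.6%) and in 14% of all windows, and the E-box in 5 (16.1%) and in 6.02% of all windows. These windows include those of genes that were not called, such as Sst and Ghrh, and that of Kiss1, which fell. The 200 bases before the start of 4 of these genes are shown 5′ to 3′ on the gene's strand because Oxt and Avp are neighbours that point towards each other on chromosome 2 and Cartpt and Pomc hold a motif, and any match is in capitals. Oxt holds the half-site 185 and 166 bases before its start, Avp the E-box 139 before, Cartpt the cAMP response element 112 before and Pomc the half-site 62 before.
Oxt: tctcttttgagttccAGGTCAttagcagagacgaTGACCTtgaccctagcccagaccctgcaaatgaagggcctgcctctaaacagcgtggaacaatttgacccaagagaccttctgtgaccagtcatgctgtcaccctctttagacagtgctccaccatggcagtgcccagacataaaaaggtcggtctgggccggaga
Avp: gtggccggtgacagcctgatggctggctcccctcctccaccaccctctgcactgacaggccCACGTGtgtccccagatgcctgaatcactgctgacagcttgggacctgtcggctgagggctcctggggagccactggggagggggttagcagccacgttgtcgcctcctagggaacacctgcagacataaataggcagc
Cartpt: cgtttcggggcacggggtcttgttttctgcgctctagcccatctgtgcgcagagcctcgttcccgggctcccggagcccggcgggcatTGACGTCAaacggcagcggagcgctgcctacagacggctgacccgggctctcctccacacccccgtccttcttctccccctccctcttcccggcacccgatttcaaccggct
Pomc: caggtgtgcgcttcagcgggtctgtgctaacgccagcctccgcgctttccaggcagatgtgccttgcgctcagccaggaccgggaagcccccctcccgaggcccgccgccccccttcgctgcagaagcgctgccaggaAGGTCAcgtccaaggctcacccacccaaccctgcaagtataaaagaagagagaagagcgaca
The Hcrt and Pmch windows of the same length held none of these letters. A match is only a match of letters, and binding was not measured. The plus-strand windows are chr2:130575969-130576168 for Oxt and chr12:3954745-3954944 for Pomc, and the minus-strand windows are chr2:130582589-130582788 for Avp and chr13:99900684-99900883 for Cartpt. GENCODE places the Cartpt gene at chr13:99898489-99901091, so that window lies inside it. The Cartpt motif is thus before the RefSeq start but not before the GENCODE start.

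The enzymes and granule proteins that turn peptide precursors into peptides also rose: of 20 tested, 14 rose, 2 fell and 4 were not called (median 0.57). Pcsk1 and Pcsk2 encode the prohormone convertases of neuroendocrine granules. Pcsk1 had 35.3, 42.9 and 36.7 CPM at 3 weeks, against 14.01, 14.3 and 14.1 CPM at P5 (1.44 ± 0.19), and Pcsk2 had 263, 219 and 303 CPM at 3 weeks, against 125, 103 and 153 CPM at P5 (1.04 ± 0.15). Pam, the enzyme that amidates peptides, had 245, 295 and 253 CPM at 3 weeks, against 99.8, 109.7 and 104.7 CPM at P5 (1.34 ± 0.10). Neither these nor Pcsk1n (1.41 ± 0.16), the gene of a convertase inhibitor, nor Ptprn (1.2997 ± 0.10), a granule membrane protein, overlapped between the ages. Pcsk5, a convertase of the general secretory pathway, fell to 13.1, 14.3 and 14.05 CPM at 3 weeks, against 36.1, 34.1 and 37.8 CPM at P5 (-1.38 ± 0.11). Nucb2, the nesfatin precursor, fell by less (-0.52 ± 0.10).

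Receptors for these and other peptides moved in both directions. Of 37 tested, 10 rose, 6 fell and 21 were not called (median 0.22), a called share of 43.2%, against 59.0% over all genes. Cckar (1.35 ± 0.22), Sstr3 (1.29 ± 0.12), Tacr3 (0.78 ± 0.16) and Npy2r (0.68 ± 0.19), receptors for cholecystokinin, somatostatin, neurokinin B and neuropeptide Y, rose. Oxtr, the oxytocin receptor, fell to 9.26, 10.1 and 9.14 CPM at 3 weeks, against 16.6, 17.1 and 21.6 CPM at P5 (-0.96 ± 0.17). Hcrtr1, an orexin receptor, fell to 5.59, 9.17 and 6.49 CPM at 3 weeks, against 15.2, 13.4 and 15.1 CPM at P5 (-1.04 ± 0.18). For both ligands the peptide gene was higher at 3 weeks and this receptor gene lower. Prokr2 (-1.12 ± 0.23), the prokineticin receptor, and Crhr1 (-0.71 ± 0.19), a receptor for corticotropin-releasing hormone, also fell. Mc4r (0.48 ± 0.26), the melanocortin receptor of appetite, and Ghsr (0.51 ± 0.26), the ghrelin receptor, were not called.

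Receptors for steroid, thyroid and metabolic hormones rose more often than they fell, with 14 up, 6 down and 9 not called of 29 (median 0.37). Nr3c1, the glucocorticoid receptor, had 122, 100.4 and 123 CPM at 3 weeks, against 46.3, 42.8 and 45.8 CPM at P5, a log2 fold change of 1.36 ± 0.11 (edgeR adjusted p = 1.33e-10), and Nr3c2, the mineralocorticoid receptor, had 18.9, 12.8 and 13.7 CPM at 3 weeks, against 5.02, 5.69 and 4.75 CPM at P5 (1.55 ± 0.25). None of these libraries overlapped. Thrb (1.35 ± 0.13), a thyroid hormone receptor, Rxra (1.42 ± 0.12), the partner of several nuclear receptors, and Esr1 (0.79 ± 0.22), an oestrogen receptor, rose too. Lepr, the leptin receptor, was not called (-0.12 ± 0.39). Among the 6 members that fell were Rara, a retinoic acid receptor (-0.90 ± 0.12), and the orphan receptors Esrrb (-1.16 ± 0.29), Esrrg (-1.01 ± 0.19), Nr2f1 (-1.004 ± 0.19) and Nr2f2 (-0.80 ± 0.14), the Nr2f pair being known for patterning the embryonic forebrain.

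**Figure D2:**
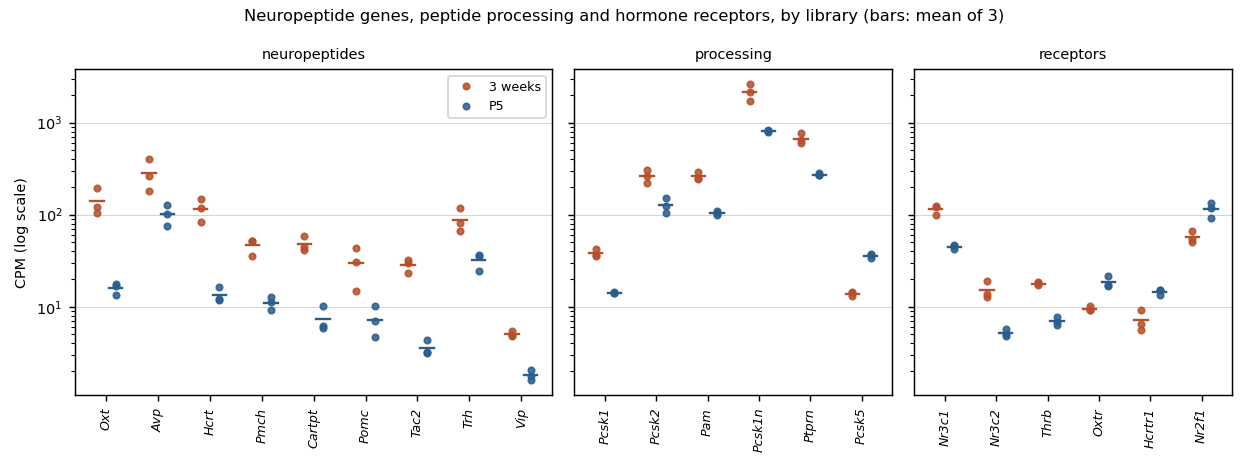
Levels in CPM (log scale) of neuropeptide, peptide processing and receptor genes in each library, with 3 weeks at the left of each pair and P5 at the right; points are single libraries and bars the mean of 3. Except for Pcsk5, Oxtr, Hcrtr1 and Nr2f1, the 3-week libraries of each gene lie above its P5 libraries.

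Genes of monoamine synthesis and breakdown had 7 of 15 members up and 1 down (median 0.52), with 4 rising when P5 replicate 3 stood alone and 2 falling without P5 replicate 2 or without 3-week replicate 1. Maob, the monoamine oxidase found mainly in glia, had 47.3, 43.3 and 52.4 CPM at 3 weeks, against 7.72, 9.09 and 11.7 CPM at P5 (2.32 ± 0.15), while Maoa, its relative in neurons, fell (-0.53 ± 0.07). Qdpr, which recycles the cofactor of the aromatic amino acid hydroxylases, rose (1.22 ± 0.15). Ddc, the enzyme that makes dopamine and serotonin from their precursors, rose (1.55 ± 0.34) with a call lost when P5 replicate 3 stood alone. Th, the first enzyme of dopamine synthesis, had 29.6, 62.4 and 63.9 CPM at 3 weeks, against 8.43, 8.34 and 35.6 CPM at P5, and P5 replicate 3 lay among the 3-week libraries. Its log2 fold change of 1.57 ± 0.57 was 2.63 without P5 replicate 3 and 0.54 with that library alone, and the call was also lost without P5 replicate 1 or 2, without 3-week replicate 2 or 3 and in the fit of the 6 libraries. Summed midbrain and hindbrain markers, a list that holds Th, were 38.6, 76.5 and 81.2 CPM at 3 weeks, against 20.5, 18.9 and 74.5 CPM at P5, with P5 replicate 3 again apart from the other P5 libraries. Th itself made most of the 3-week sums. Of the 9 members tested, Th was the only 1 that rose, and 1 fell. The part of the other markers in the result was not tested. Monoamine receptors rose in 11 of 27 and fell in 4 (median 0.45). Hrh3, a histamine receptor that limits transmitter release, had 156, 152 and 185 CPM at 3 weeks, against 26.9, 24.5 and 22.7 CPM at P5 (2.74 ± 0.14), with no overlap. Hrh1 (1.14 ± 0.12), another histamine receptor, Adra2b (1.67 ± 0.35), an adrenergic receptor, and Drd2 (1.03 ± 0.22), the dopamine D2 receptor, rose. The serotonin receptor genes Htr1d (-0.68 ± 0.19) and Htr5a (-0.44 ± 0.10) fell. Few acetylcholine receptor genes were called, 2 up and 1 down of 14 (median 0.18): Chrnb2 (0.42 ± 0.08) and Chrm2 (0.55 ± 0.18) rose and Chrna3 fell (-1.68 ± 0.42). Without P5 replicate 3, 4 of them rose, and with it alone 1 rose, not Chrm2, and 2 fell.

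Within the receptors for glutamate, subunits moved in opposite directions. Of 7 NMDA receptor genes, 3 rose and 3 fell (median 0.59). Grin2c, a subunit known for its late appearance in the postnatal brain, had 44.4, 35.0 and 56.7 CPM at 3 weeks, against 4.15, 3.88 and 3.02 CPM at P5, a log2 fold change of 3.63 ± 0.19 (edgeR adjusted p = 5.77e-14). Grin3a, a subunit of juvenile receptors, fell to 106, 97.0 and 100.1 CPM at 3 weeks, against 307, 249.7 and 347 CPM at P5 (-1.58 ± 0.11). The libraries of the ages were far apart for both. Grin2d, known for high levels in the young brain, fell less (-0.65 ± 0.17), and the calls for Grin2d, Grin2a (0.91 ± 0.31) and Grin2b were lost when P5 replicate 3 stood alone, which left 1 NMDA gene falling. Grin2a also lost its call without P5 replicate 1 or without 3-week replicate 1, and Grin2b without any 1 library but 3-week replicate 1. Mean levels of Grin2c then stayed between 43.2 and 61.2 CPM from 4 weeks to 24 months.

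AMPA receptor genes had 3 of 16 members up and 7 down (median -0.01). Among pore subunits, Gria1 had 387, 399.7 and 353 CPM at 3 weeks, against 221, 282 and 213 CPM at P5 (0.67 ± 0.11), while Gria2, the subunit that limits calcium entry, fell to 328, 291 and 257 CPM at 3 weeks, against 475, 436 and 440.4 CPM at P5 (-0.63 ± 0.16), and Gria4 fell (-0.35 ± 0.09). Of the auxiliary proteins, Cacng7 rose (0.94 ± 0.09), Cacng4 (-0.97 ± 0.10), Gsg1l (-1.08 ± 0.16) and Cnih2 (-0.74 ± 0.15) fell, and Cacng2, which encodes stargazin, was not called (0.12 ± 0.12). No kainate receptor gene rose: 6 of 7 fell (median -0.81), among them Grik1 (-1.15 ± 0.11), Grik3 (-0.81 ± 0.15), Grik2 (-0.67 ± 0.12) and the auxiliary genes Neto2 (-1.37 ± 0.10) and Neto1 (-0.97 ± 0.17). Neto2 had 65.4, 45.8 and 49.5 CPM at 3 weeks, against 140.3, 132 and 143 CPM at P5. All 7 metabotropic receptors were called, 3 up and 4 down (median -0.25). Grm3 fell to 28.3, 18.9 and 22.1 CPM at 3 weeks, against 83.1, 63.4 and 69.2 CPM at P5 (-1.64 ± 0.14), and Grm5 fell to 155, 124 and 123 CPM at 3 weeks, against 336, 315 and 296 CPM at P5 (-1.24 ± 0.15); both are receptors that astrocytes also use. The rises of Grm2 (0.51 ± 0.16) and Grm4 (0.56 ± 0.17) were not called with P5 replicate 3 alone. Grm2 also lost the call without P5 replicate 1, and Grm4 without 3-week replicate 3.

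GABA-A receptor genes showed the same kind of split, with 8 up and 4 down of 16 (median 0.23), or 4 up when P5 replicate 3 stood alone. Gabrd, the delta subunit of receptors outside synapses, had 41.2, 12.8 and 46.1 CPM at 3 weeks, against 2.31, 2.36 and 0.922 CPM at P5, a log2 fold change of 4.18 ± 0.47 (edgeR adjusted p = 1.43e-07). Gabra5, an alpha subunit prominent in the young brain, fell to 36.6, 42.4 and 37.5 CPM at 3 weeks, against 103, 96.3 and 103 CPM at P5 (-1.38 ± 0.11). With P5 replicate 3 alone the log2 fold change of Gabrd was 5.17, and Gabra4 (1.17 ± 0.29) lost its call. Replicate 2 was the lowest 3-week library for Gabrd and Gabra4; it was also the lowest 3-week library in summed thalamus markers, at 1230 CPM, against 1680 and 1985 CPM in the other 3-week libraries, and the part of these markers was not tested. Gabre (1.496 ± 0.25) and Gabrq (1.27 ± 0.18), subunits known from hypothalamus, rose, and there replicate 2 was the highest of the 3-week libraries. Gabra3 fell (-0.40 ± 0.10), and Gabra2 (-0.16 ± 0.14) and Gabrg1 (-0.05 ± 0.10) were not called. Of 5 glycine receptor genes, 3 rose and 1 fell (median 0.53). Glra1, the adult alpha subunit, had 10.5, 11.8 and 11.9 CPM at 3 weeks, against 3.34, 2.42 and 3.99 CPM at P5 (1.81 ± 0.33), whereas Glra2, the fetal one, had 39.8, 41.7 and 40.5 CPM at 3 weeks, against 116, 94.9 and 112 CPM at P5 (-1.41 ± 0.11). The pair thus moved in opposite directions with no overlap, Glrb rose (0.53 ± 0.09) and Glra3 was not called (0.39 ± 0.23).

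**Figure D3:**
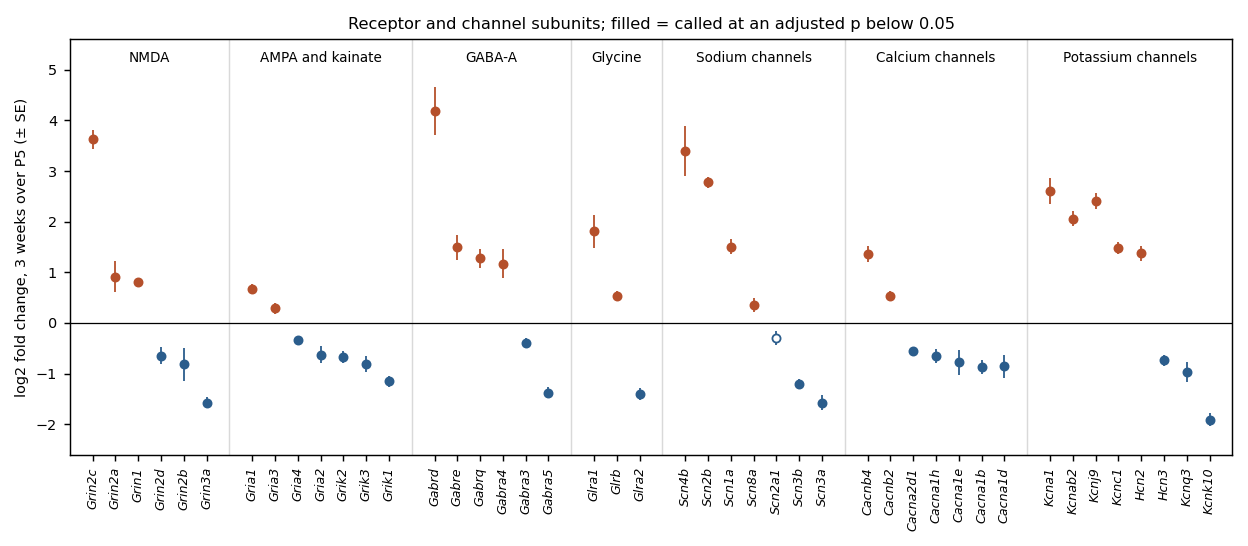
Log2 fold change (3 weeks over P5, ± approximate SE derived from edgeR's F value) of named receptor and channel subunits, by family. Filled points were called at an adjusted p below 0.05 and the open point was not. Within the NMDA, GABA-A, glycine and sodium channel families some subunits lie well above 0 and others well below it, from 4.18 for Gabrd to -1.58 for Grin3a and Scn3a.

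Sodium channel genes had 6 of 11 members up and 3 down (median 0.35). Beta subunits, which set gating and hold channels at the membrane, led the members that rose. Scn2b had 373, 354 and 371 CPM at 3 weeks, against 59.0, 43.6 and 57.8 CPM at P5 (2.78 ± 0.11), and Scn4b had 71.7, 18.8 and 31.9 CPM at 3 weeks, against 4.71, 3.13 and 3.80 CPM at P5 (3.40 ± 0.50). Scn4b was highest in 3-week replicate 1, the library with the highest summed striatum markers (973 CPM, against 389 and 416 CPM in the other 3-week libraries); the part of these markers was not tested, and without that library the log2 fold change was 2.72. Among pore subunits, Scn1a had 179.6, 144 and 178 CPM at 3 weeks, against 65.6, 43.7 and 67.0 CPM at P5 (1.51 ± 0.15), and Scn3a, the embryonic form, fell to 77.3, 82.1 and 76.2 CPM at 3 weeks, against 239, 215 and 250.2 CPM at P5 (-1.58 ± 0.15). Scn3b, a juvenile beta subunit, fell too (-1.20 ± 0.09). Scn2a, listed as Scn2a1 (-0.29 ± 0.14), was not called, and Scn8a (0.35 ± 0.14) lost its call without P5 replicate 2, without 3-week replicate 1 or 3, with P5 replicate 3 alone, with no filter on low counts and under scaling by library totals.

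Calcium channel genes went the other way, with 2 up and 8 down of 15 (median -0.43). Cacna1b (-0.86 ± 0.14), the N-type channel of nerve terminals, Cacna1d (-0.86 ± 0.22), an L-type channel, Cacna1h (-0.65 ± 0.14), a T-type channel, and the auxiliary Cacna2d1 (-0.56 ± 0.10) fell. Cacnb4, an auxiliary subunit, had 175, 121 and 176 CPM at 3 weeks, against 68.9, 51.5 and 64.0 CPM at P5 (1.36 ± 0.16). Voltage-gated potassium and HCN channels had 19 of 41 members up and 9 down (median 0.17). Kcna1, the axonal channel that restrains firing, had 114, 82.2 and 121 CPM at 3 weeks, against 23.2, 10.4 and 18.7 CPM at P5 (2.61 ± 0.26), its partner Kcnab2 had 329.7, 286 and 349 CPM at 3 weeks, against 82.7, 69.7 and 79.3 CPM at P5 (2.06 ± 0.15), and Kcnc1, a channel of fast firing, had 326, 408 and 359 CPM at 3 weeks, against 134, 128 and 129 CPM at P5 (1.48 ± 0.12). None of these overlapped. Of the pacemaker channel genes, Hcn2 rose (1.37 ± 0.15) and Hcn3 fell (-0.74 ± 0.11). Kcnq3, the M-current subunit, fell (-0.97 ± 0.20). Of 22 inward rectifier, two-pore and calcium-activated potassium channels, 11 rose and 2 fell (median 0.44). Kcnj9, a G protein-gated channel, had 158, 141 and 181 CPM at 3 weeks, against 30.5, 26.5 and 33.4 CPM at P5 (2.41 ± 0.16), and Kcnj16, which pairs with the glial channel Kcnj10, rose (1.49 ± 0.11). Kcnk10, a two-pore channel, fell to 10.8, 11.4 and 11.6 CPM at 3 weeks, against 47.9, 37.2 and 42.1 CPM at P5 (-1.91 ± 0.13).

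The sodium-potassium and calcium pumps that restore these gradients had 8 of 12 members up and 1 down (median 0.49). Atp1b1, a beta subunit of the sodium-potassium pump, had 1648, 1564 and 1693 CPM at 3 weeks, against 958, 882 and 961 CPM at P5 (0.81 ± 0.09), and the plasma membrane calcium pump gene Atp2b2 had 391, 326 and 389 CPM at 3 weeks, against 235, 192 and 225 CPM at P5 (0.76 ± 0.12), with no overlap. The 1 that fell, Atp2b4 (-0.52 ± 0.21), lost its call without P5 replicate 2, without 3-week replicate 3 and with P5 replicate 3 alone. Among 19 genes of GABA and glutamate synthesis, uptake and chloride balance, 9 rose and 1 fell (median 0.33). Slc1a2, the glutamate transporter of astrocytes, had 1513, 1201 and 1459 CPM at 3 weeks, against 406, 362 and 396 CPM at P5 (1.84 ± 0.10), and Glul, which makes glutamine from that glutamate, had 931, 841 and 791 CPM at 3 weeks, against 267, 321 and 277 CPM at P5 (1.57 ± 0.13). Both lay several-fold apart between the ages. Slc12a2, which brings chloride into cells, had 155, 154 and 173 CPM at 3 weeks, against 53.0, 57.4 and 58.9 CPM at P5 (1.51 ± 0.14), and Slc12a5, which takes it out of neurons, rose (0.35 ± 0.10) with a call lost when P5 replicate 3 stood alone. Abat, which breaks GABA down, rose (0.78 ± 0.08). Slc1a4, a carrier of neutral amino acids, fell (-1.20 ± 0.08). The markers of the main transmitter classes, Gad1 (-0.17 ± 0.18) for GABA and Slc17a6 (-0.0049 ± 0.19) for glutamate, were not called, nor was Slc17a8 (-0.66 ± 0.36). Slc17a7, the vesicular carrier of cortex and thalamus, had 126, 50.1 and 139 CPM at 3 weeks, against 36.3, 12.2 and 44.0 CPM at P5 (1.77 ± 0.59), with a call lost without P5 replicate 2, without 3-week replicate 3, with P5 replicate 3 alone and in the fit of the 6 libraries alone. Summed cortex markers, a list that holds Slc17a7, were 438, 261 and 402 CPM at 3 weeks, against 342, 314 and 329 CPM at P5. These sums include Slc17a7 itself. Of the 12 cortex markers, 2 rose, Slc17a7 and Cux2 (log2 fold change 0.33), and 3 fell. The part of the other cortex markers and that of the thalamus markers was not tested.

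Genes of transmitter release and of the postsynaptic side were divided. Of 45 vesicle and release genes, 17 rose and 12 fell (median 0.05). Vamp1, a vesicle fusion protein, had 284, 314 and 321 CPM at 3 weeks, against 70.9, 47.4 and 74.3 CPM at P5 (2.26 ± 0.20), and Cplx1, the complexin that clamps fusion, had 749, 574 and 818 CPM at 3 weeks, against 236, 149 and 191 CPM at P5 (1.89 ± 0.20). Syn3, a synapsin known from immature neurons, fell to 33.6, 33.5 and 32.6 CPM at 3 weeks, against 153, 149 and 132 CPM at P5 (-2.12 ± 0.10), and Rab3d fell to 4.69, 6.03 and 5.30 CPM at 3 weeks, against 31.1, 34.9 and 30.9 CPM at P5 (-2.597 ± 0.16). In each of these 4 the ages did not overlap. Stx1a (-1.01 ± 0.17), a fusion protein of the plasma membrane, and Unc13b (-1.19 ± 0.18), a priming factor, fell. The calcium sensor gene Syt1 was not called (0.16 ± 0.12), and Syt2 (0.89 ± 0.31) lost its call without P5 replicate 2, without 3-week replicate 1 and with P5 replicate 3 alone. Of 35 postsynaptic scaffold and calcium signalling genes, 12 rose and 10 fell (median 0.10), and 6 fell without P5 replicate 1, without 3-week replicate 2 or without 3-week replicate 3, and 5 with P5 replicate 3 alone. Camk2a, the kinase of synaptic plasticity, had 718, 531 and 582 CPM at 3 weeks, against 184, 227 and 164 CPM at P5 (1.67 ± 0.24), and Camk2d, its relative of wider use, fell (-0.42 ± 0.07). Camk4, a nuclear kinase, fell to 118, 67.2 and 88.9 CPM at 3 weeks, against 406, 189 and 366 CPM at P5 (-1.81 ± 0.24). Prkcd (3.34 ± 0.49), a kinase gene also on the thalamus list, and Dlg1 (1.37 ± 0.07), a scaffold, rose.

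Molecules that guide axons and hold cells together were lower at 3 weeks in most called cases. Of 21 ephrins and Eph receptors, 13 fell and none rose (median -0.55), with 1 rising in the fit of the 6 libraries alone, with a minimum mean of 1 CPM and without 3-week replicate 1. Ephb2, a receptor that steers axons and builds synapses, fell to 30.3, 37.7 and 35.8 CPM at 3 weeks, against 113, 123 and 108 CPM at P5 (-1.73 ± 0.09), and Epha3 (-1.52 ± 0.22), Epha7 (-1.03 ± 0.22) and the ligand gene Efna2 (-1.03 ± 0.11) fell. Semaphorins, plexins and neuropilins had 17 of 31 members down and 6 up (median -0.38). Among the receptors, Plxna1 fell to 159, 191 and 168 CPM at 3 weeks, against 485, 469 and 488 CPM at P5 (-1.48 ± 0.12), and Nrp2 (-1.43 ± 0.19), Plxna2 (-1.18 ± 0.12) and Plxna3 (-1.33 ± 0.21) fell. The members that rose furthest were Plxnb3, with 47.9, 46.9 and 51.7 CPM at 3 weeks, against 9.06, 6.30 and 8.88 CPM at P5 (2.60 ± 0.15), and Sema4d, with 186, 197 and 193 CPM at 3 weeks, against 51.5, 54.5 and 53.2 CPM at P5 (1.86 ± 0.07); both are also known in oligodendrocytes. Slit, Robo, netrin and Unc5 genes had 9 of 19 members down and 3 up (median -0.40). Robo2, a receptor for the repellent Slit proteins, fell to 49.3, 36.8 and 40.9 CPM at 3 weeks, against 172, 114 and 158 CPM at P5 (-1.80 ± 0.13), as did Robo1 (-0.96 ± 0.12) and Dcc (-0.92 ± 0.10), the netrin receptor. Unc5b, another netrin receptor, rose (1.71 ± 0.12).

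Cadherins and delta protocadherins had 14 of 25 members down and 3 up (median -0.45). Pcdh11x fell to 46.0, 45.3 and 40.6 CPM at 3 weeks, against 186, 139.5 and 181 CPM at P5 (-1.94 ± 0.13), and Cdh4 (-1.65 ± 0.10), Cdh8 (-1.34 ± 0.13) and Pcdh19 (-1.42 ± 0.10), adhesion genes of particular brain areas, fell with it. Synaptic adhesion genes had 21 of 37 members down and 5 up (median -0.29), with 3 rising when P5 replicate 3 stood alone. Nlgn1, a postsynaptic adhesion protein, fell (-0.73 ± 0.08), as did Cbln2 (-1.04 ± 0.21), a bridging protein, and Cntn5 (-1.61 ± 0.15), a contactin. The far riser was Cntnap1, a protein of the axon beside the node of Ranvier, with 249, 264 and 272 CPM at 3 weeks, against 61.1, 37.8 and 62.9 CPM at P5 (2.28 ± 0.13). Polysialic acid, a sugar chain on the adhesion molecule NCAM that loosens contacts, is made by St8sia2 and St8sia4. St8sia2 fell to 10.5, 13.8 and 10.1 CPM at 3 weeks, against 193, 210.4 and 229 CPM at P5 (-4.21 ± 0.16; edgeR adjusted p = 2.01e-16), and stayed at a mean of 7.91 to 13.3 CPM at the later ages. St8sia4 (-1.22 ± 0.10) and Ncam1 (-1.12 ± 0.07) itself fell less. Over the 16 genes of polysialic acid and ganglioside synthesis 4 rose and 6 fell (median -0.02), and St8sia5, a ganglioside enzyme, rose (1.37 ± 0.14).

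Among cytoskeletal genes, isoforms moved in opposite directions. Of 14 tubulins, 3 rose and 7 fell (median -0.26). Tubb2b, a tubulin of migrating neurons, fell to 237, 245 and 215 CPM at 3 weeks, against 2199.9, 2355 and 2066 CPM at P5 (-3.25 ± 0.14). Tuba1a (-1.79 ± 0.07), Tubb5 (-1.67 ± 0.08), Tubb3 (-1.25 ± 0.08) and Tubb2a (-1.02 ± 0.08) fell. Tubb4a had 987, 1071 and 1149 CPM at 3 weeks, against 353, 353 and 349 CPM at P5 (1.60 ± 0.10), and Tuba4a had 355, 362 and 355 CPM at 3 weeks, against 128, 109 and 137 CPM at P5 (1.51 ± 0.08), with no overlap. Tubulin genes are alike in sequence, so the split of reads between Tubb2a and Tubb2b and among the Tuba1 genes is uncertain, and Tuba4a shares an exon with Stk16 on the other strand. Microtubule-associated proteins and stathmins had 13 of 20 members down and 5 up (median -0.69). Mapt, which encodes tau, fell to 487, 512 and 502 CPM at 3 weeks, against 1851, 1720.2 and 1748 CPM at P5 (-1.83 ± 0.06), and Map1b (-1.43 ± 0.10), Map6 (-1.32 ± 0.06) and Stmn2 (-1.76 ± 0.09), proteins of growing neurites, fell. Tppp, a microtubule protein known in oligodendrocytes, rose (2.46 ± 0.09). Kinesins of axonal transport were even, with 6 up and 6 down of 17 (median -0.12). Kif5a, a motor of axonal cargo, had 2396, 2323 and 2487 CPM at 3 weeks, against 1041, 891 and 1032 CPM at P5 (1.28 ± 0.10), and Kif21b fell to 83.5, 87.0 and 82.6 CPM at 3 weeks, against 519.8, 480.2 and 506 CPM at P5 (-2.57 ± 0.13). Among 12 intermediate filament genes, 3 rose and 6 fell (median -0.25), with Nefh (1.16 ± 0.28), the heavy neurofilament, and Prph (1.54 ± 0.30), peripherin, up and Lmnb1 (-1.86 ± 0.12), a nuclear lamin, and Vim (-1.35 ± 0.21), a filament of glial precursors, down.

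The extracellular matrix of hyaluronan and proteoglycans was mixed, with 9 up and 15 down of 32 (median -0.36). Hapln4, a link protein of the nets around mature neurons, had 97.7, 103 and 118 CPM at 3 weeks, against 6.59, 4.80 and 5.67 CPM at P5, a log2 fold change of 4.22 ± 0.15, and Sparc, a matrix protein secreted by astrocytes and microglia, had 2457, 2917 and 2615 CPM at 3 weeks, against 588, 583 and 574 CPM at P5 (2.19 ± 0.11). Ncan, the juvenile proteoglycan neurocan, fell to 199, 174 and 197 CPM at 3 weeks, against 846, 661 and 715 CPM at P5 (-1.96 ± 0.13). Tnc, the matrix protein tenascin C, fell to 9.14, 7.66 and 9.79 CPM at 3 weeks, against 54.7, 63.4 and 56.6 CPM at P5 (-2.71 ± 0.27), and Gpc2, a cell surface proteoglycan of growing axons, fell to 3.40, 3.18 and 3.04 CPM at 3 weeks, against 31.6, 38.5 and 30.4 CPM at P5 (-3.38 ± 0.20). All 5 were separated without overlap. Vcan fell (-1.48 ± 0.10), Tnr rose (0.67 ± 0.22) with a call lost when P5 replicate 3 stood alone, and Acan was not called (-0.05 ± 0.22). Collagens, laminins and basement membrane genes had 14 of 29 members down and 3 up (median -0.61), with 9 falling without P5 replicate 2. The count that rose was 1 without P5 replicate 1 or 3, without 3-week replicate 1 or 2, under scaling by library totals and with no filter, and 0 with P5 replicate 3 alone. Col6a3 (-1.91 ± 0.32), Lama1 (-1.17 ± 0.20) and Nid1 (-1.16 ± 0.17) fell. Summed fibroblast markers were 203 to 301 CPM at 3 weeks and 237 to 428 CPM at P5, highest in P5 replicate 2. The largest member was Pdgfra, with a mean of 104 CPM at 3 weeks and 163 CPM at P5. It was also the 1 member of this list that fell (-0.65 ± 0.09), and the part of other cell types in its level was not tested. Col1a1, Col1a2 and Col3a1 stand on both this list and the collagen list. The part of fibroblasts in these collagen results was not tested.

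**Figure D4:**
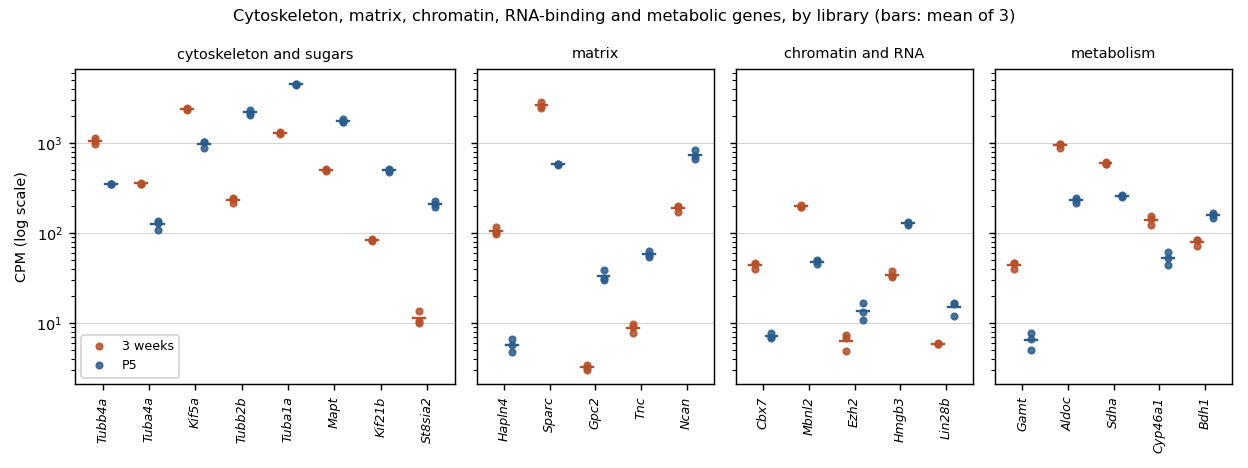
Levels in CPM (log scale) of cytoskeletal, matrix, chromatin, RNA-binding and metabolic genes in each library, with 3 weeks at the left of each pair and P5 at the right; points are single libraries and bars the mean of 3. The ages are separated for every gene shown, with Tubb4a, Tuba4a, Kif5a, Hapln4, Sparc, Cbx7, Mbnl2, Gamt, Aldoc, Sdha and Cyp46a1 higher at 3 weeks and the others lower.

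Chromatin and RNA-binding families were lower in most called cases. BAF chromatin remodelling genes had 15 of 25 members down and 5 up (median -0.50). Dpf1 and Actl6b, subunits of the neuronal complex, had log2 fold changes of -1.36 ± 0.12 and -0.84 ± 0.09, Dpf3 -1.42 ± 0.17 and Bcl11a -1.28 ± 0.21. Bcl7b rose (1.63 ± 0.10), and Actl6a, the progenitor subunit, was not called (0.03 ± 0.09). Polycomb genes were mixed, with 7 up and 10 down of 22 (median -0.07). Cbx7, a reader of the repressive histone mark, had 40.2, 46.5 and 45.7 CPM at 3 weeks, against 6.96, 6.79 and 7.74 CPM at P5 (2.62 ± 0.11), and the methyltransferase genes moved apart, with Ezh1 up (0.52 ± 0.06) and Ezh2 down (-1.10 ± 0.17). Of 9 high mobility group genes, 8 fell and 1 rose (median -0.57), the 1 that rose, Hmga1, not being called without 3-week replicate 2 or with P5 replicate 3 alone. Hmgb3 fell to 37.9, 33.2 and 32.3 CPM at 3 weeks, against 129.6, 135 and 123 CPM at P5 (-1.90 ± 0.10). Hmga2, known from embryonic progenitors, was scarce at both ages at 0.150, 0.253 and 0.119 CPM at 3 weeks and 0.769, 0.661 and 0.866 CPM at P5 (-2.14 ± 0.61). Of 7 RNA-binding genes of the Lin28, Igf2bp and Musashi kind, 6 fell and none rose (median -1.34). Lin28b, which blocks let-7 microRNA processing, fell to 5.98, 5.89 and 5.86 CPM at 3 weeks, against 16.5, 12.0 and 16.5 CPM at P5 (-1.34 ± 0.28), and Igf2bp2 (-1.85 ± 0.28) and Igf2bp3 (-1.12 ± 0.22), which bind developmental mRNAs, fell. Igf2bp1, their relative, had 2 counts over the 3-week libraries and 48 over the P5 libraries (ratio 0.0443, 95% counting interval 0.00521 to 0.169).

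Splicing regulators had 24 of 38 members down and 5 up (median -0.34). The members that rose furthest were a pair of muscleblind genes, which promote adult splice forms: Mbnl2 had 207, 196 and 196 CPM at 3 weeks, against 45.8, 50.1 and 48.7 CPM at P5 (2.05 ± 0.07), and Mbnl1 had 81.5, 72.9 and 75.3 CPM at 3 weeks, against 33.9, 33.99 and 34.05 CPM at P5 (1.17 ± 0.06). Mbnl3, the third of that family, fell (-1.52 ± 0.29). Qk, a regulator known in glia, rose (0.70 ± 0.09). Hnrnpa1 (-1.11 ± 0.06), Celf2 (-1.01 ± 0.14), Nova1 (-0.94 ± 0.08), Ptbp2 (-0.62 ± 0.06) and Ptbp1 (-0.42 ± 0.13) fell, all regulators of exon choice. Rbfox3, which encodes the neuronal marker NeuN, differed little (0.28 ± 0.09), and Rbfox1 was not called (-0.11 ± 0.15).

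Genes of energy metabolism rose in most called cases. Of 17 glycolysis genes, 12 rose and 1 fell (median 0.94). Aldoc, the aldolase of astrocytes, had 876, 991 and 981 CPM at 3 weeks, against 247, 217 and 232 CPM at P5 (2.03 ± 0.13), Eno2, the neuronal enolase, had 901, 930.1 and 883 CPM at 3 weeks, against 285, 231 and 272 CPM at P5 (1.79 ± 0.08), and Pkm, pyruvate kinase, had 1849, 1960.3 and 1895 CPM at 3 weeks, against 727, 716 and 713 CPM at P5 (1.40 ± 0.09). The ages lay apart in each. Ldhb, the lactate dehydrogenase subunit of oxidative tissue, rose (1.18 ± 0.13), Ldha fell slightly (-0.21 ± 0.08) with a call lost without P5 replicate 1, without 3-week replicate 1 or 3 and with P5 replicate 3 alone, and Hk2 was not called (0.24 ± 0.13). Citric acid cycle genes had 16 of 25 members up and 2 down (median 0.33), with 4 falling under scaling by library totals or in the 6 libraries alone and 1 without P5 replicate 1, without 3-week replicate 3 or with P5 replicate 3 alone. Sdha had 591, 619.6 and 593 CPM at 3 weeks, against 255, 264 and 261 CPM at P5 (1.21 ± 0.06) and Mdh1 rose (1.14 ± 0.09), whereas Cs, citrate synthase, fell to 224, 208 and 218 CPM at 3 weeks, against 353, 309.5 and 338 CPM at P5 (-0.62 ± 0.07). All 5 genes of the creatine system, the short-term store of phosphate energy, rose (median 1.08). Gamt, which makes creatine, had 40.1, 47.0 and 46.2 CPM at 3 weeks, against 6.59, 7.68 and 5.00 CPM at P5 (2.79 ± 0.14), and the mitochondrial kinase gene Ckmt1 (1.28 ± 0.09) and the transporter gene Slc6a8 (1.08 ± 0.08) rose.

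Ketone body and fatty acid genes were divided, with 7 up and 8 down of 18 (median -0.14). The enzymes that burn ketone bodies fell: Bdh1 to 83.9, 72.1 and 84.8 CPM at 3 weeks, against 168, 149 and 160.4 CPM at P5 (-0.99 ± 0.08), Acat1 (-0.70 ± 0.06) and Oxct1 (-0.56 ± 0.11). Cpt1a, which admits fatty acids to mitochondria, fell (-0.59 ± 0.13), and Hadhb, of the oxidation cycle itself, rose (1.23 ± 0.12). Mean Bdh1 was 69.4 CPM at 4 weeks and 43.7 CPM at 24 months. Of 20 transporters for glucose, lactate and amino acids, 6 rose and 7 fell (median -0.05). Slc2a1, the glucose transporter of the blood-brain barrier and astrocytes, had 139, 144 and 152 CPM at 3 weeks, against 50.8, 60.2 and 55.4 CPM at P5 (1.39 ± 0.11), and Slc16a7, a carrier of lactate and ketone bodies, fell (-1.38 ± 0.21). Slc16a1, another such carrier, was not called (-0.09 ± 0.15). Summed endothelial markers, which include no transporter named here, were 410 to 433 CPM at 3 weeks and 248 to 262 CPM at P5, with 7 of 12 up and none down, and their part in the Slc2a1 result was not tested.

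Cholesterol synthesis and cholesterol handling moved apart. Of 24 synthesis genes, 14 fell and 7 rose (median -0.40), with 4 rising when P5 replicate 3 stood alone. Fdps, an enzyme of the isoprenoid steps, fell to 74.1, 77.7 and 85.3 CPM at 3 weeks, against 134, 138 and 131 CPM at P5 (-0.77 ± 0.07), and Acat2 (-0.80 ± 0.07) and Nsdhl (-0.69 ± 0.09) fell, whereas the gene of the late enzyme Ebp rose (0.77 ± 0.11). Of 15 transport and oxysterol genes, 9 rose and 2 fell (median 0.59). Cyp46a1, the neuronal enzyme that turns cholesterol into a form that leaves the brain, had 145, 123 and 157 CPM at 3 weeks, against 61.5, 44.8 and 53.5 CPM at P5 (1.41 ± 0.13). Apoe, the main lipid carrier of the brain, had 3140.4, 3778 and 3215 CPM at 3 weeks, against 1639, 1801 and 1567 CPM at P5 (1.02 ± 0.16). Lrp8, a receptor for Apoe and for the migration signal reelin, fell to 64.3, 60.1 and 67.3 CPM at 3 weeks, against 229.7, 212 and 217 CPM at P5 (-1.78 ± 0.11).

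Antioxidant, metal and pH genes rose more often than they fell. Of 32 glutathione, peroxiredoxin and metallothionein genes, 18 rose and 6 fell (median 0.43). The metallothioneins Mt1 (1.36 ± 0.20) and Mt3 (1.49 ± 0.18), which bind zinc and copper, Gsta4 (2.00 ± 0.15), a glutathione transferase, and Gpx3 (0.96 ± 0.19), a secreted peroxidase, rose, and Txn1, thioredoxin, fell (-0.72 ± 0.10). Of 21 iron and zinc genes, 12 rose and 5 fell (median 0.40), with 7 rising when P5 replicate 3 stood alone. The ferritin subunits moved apart: Fth1 had 862, 865 and 984 CPM at 3 weeks, against 439.7, 417 and 398 CPM at P5 (1.11 ± 0.17), and Ftl1 had 327, 338 and 314 CPM at 3 weeks, against 898, 838 and 768 CPM at P5 (-1.35 ± 0.13). Ferritin genes have near-identical copies, so these values are uncertain. Carbonic anhydrases had 5 of 12 members up and 2 down (median 0.42), among them Car14 (3.20 ± 0.35) and Car2 (1.75 ± 0.16) up and Car8 (-1.25 ± 0.14) down. Among 12 gap junction, pannexin and aquaporin genes, 3 rose and 4 fell (median -0.04). Gjb6, an astrocyte connexin, had 77.7, 85.5 and 83.2 CPM at 3 weeks, against 4.01, 10.8 and 10.7 CPM at P5 (3.26 ± 0.21), and Gjd2, the neuronal connexin, fell to 21.1, 24.3 and 22.7 CPM at 3 weeks, against 72.6, 60.0 and 71.4 CPM at P5 (-1.58 ± 0.13). The channel gene Panx1 fell (-1.41 ± 0.12) and its relative Panx2 rose (0.74 ± 0.11).

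Growth factor and patterning pathways were mixed. Wnt pathway genes had 13 of 49 members up and 13 down (median 0.09). Sfrp5, a secreted Wnt inhibitor, had 14.4, 22.8 and 18.0 CPM at 3 weeks, against 0.702, 1.29 and 0.9496 CPM at P5 (4.21 ± 0.37), and Sfrp1, a relative, fell (-1.45 ± 0.26). The target gene Axin2 (0.31 ± 0.14) and the mediator gene Lef1 (0.34 ± 0.36) were not called. Notch pathway genes had 5 of 25 members up and 9 down (median -0.19), with the ligand gene Dll1 down (-0.55 ± 0.12), the effector genes Hey1 (0.86 ± 0.10) and Heyl (1.47 ± 0.17) up, and the receptor gene Notch1 (-0.07 ± 0.10) and the effector gene Hes5 (-0.47 ± 0.21) not called. Hedgehog pathway genes had 7 of 13 members up and 2 down (median 0.31), with 1 falling without P5 replicate 1, without 3-week replicate 1 or 3 and with P5 replicate 3 alone. The ligand gene Shh had 15.5, 18.5 and 16.4 CPM at 3 weeks, against 5.95, 8.08 and 6.17 CPM at P5 (1.32 ± 0.12), the target and mediator gene Gli1 had 9.05, 15.7 and 10.8 CPM at 3 weeks, against 4.25, 6.07 and 3.94 CPM at P5 (1.31 ± 0.26), and Smo (0.73 ± 0.15), the signal transducer, and Hhip (1.49 ± 0.17), an inhibitor that the pathway induces, rose. BMP and TGF-beta genes had 15 of 40 members up and 7 down (median 0.23), with the inhibitory Smad7 at 50.9, 57.0 and 57.8 CPM at 3 weeks, against 12.64, 13.7 and 13.2 CPM at P5 (2.07 ± 0.11), the receptor gene Acvr2a down (-1.26 ± 0.13) and the ligand gene Bmp7 not called (-0.09 ± 0.20).

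Of 32 FGF and EGF family genes, 7 rose and 11 fell (median -0.02). Fgf1, a growth factor made by neurons, had 107, 106 and 102 CPM at 3 weeks, against 23.04, 21.0 and 22.99 CPM at P5 (2.23 ± 0.09), and the receptor genes Fgfr1 (0.74 ± 0.11), Fgfr2 (0.96 ± 0.13) and Fgfr3 (0.71 ± 0.11) rose, while Egfr (-1.56 ± 0.11), the epidermal growth factor receptor of progenitors, fell. Erbb4, a neuregulin receptor of interneurons, was not called (0.10 ± 0.09). Of 28 neurotrophic genes, 10 rose and 8 fell (median 0.10), with 5 falling without P5 replicate 1 or without 3-week replicate 3. Ntrk2, the receptor of brain-derived neurotrophic factor, had 954, 971 and 969 CPM at 3 weeks, against 567, 565 and 557 CPM at P5 (0.78 ± 0.06), its ligand gene Bdnf was not called (0.32 ± 0.16), and Ptn, pleiotrophin, fell (-1.09 ± 0.10). Retinoic acid genes were even, with 4 up and 4 down of 13 (median -0.21), 2 up when P5 replicate 3 stood alone and 2 down with DESeq2, under either other filter, in the 6 libraries alone and without P5 replicate 3 or 3-week replicate 1 or 3. Crabp1, which binds retinoic acid in the cell, fell (-1.76 ± 0.35), and Aldh1a1, which makes it, had 70.3, 79.1 and 117 CPM at 3 weeks, against 5.18, 9.14 and 46.7 CPM at P5 (2.12 ± 0.57), with P5 replicate 3 well above the other P5 libraries. Without that library the log2 fold change was 3.62, and with it alone 0.92 and not called; the call was also lost in the 6 libraries alone. Of 14 IGF genes, 8 fell and 3 rose (median -0.50). Igf1, insulin-like growth factor, fell to 12.601, 8.02 and 12.9 CPM at 3 weeks, against 36.3, 13.7 and 37.8 CPM at P5 (-1.39 ± 0.29), and the binding protein gene Igfbp2 (-1.52 ± 0.44) and the adaptor gene Irs1 (-1.08 ± 0.08) fell, while Igfbp7 (1.38 ± 0.15) and the adaptor gene Irs2 (0.59 ± 0.15) rose.

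Immediate early genes, which neurons switch on within minutes of activity, had 11 of 22 members up and 1 down (median 0.52). Fosb had 3.13, 4.33 and 4.55 CPM at 3 weeks, against 0.301, 0.518 and 0.503 CPM at P5 (3.16 ± 0.49), Junb had 24.9, 43.6 and 33.8 CPM at 3 weeks, against 6.49, 7.51 and 5.14 CPM at P5 (2.42 ± 0.27), and Egr1 had 40.6, 51.4 and 63.0 CPM at 3 weeks, against 12.7, 12.8 and 8.57 CPM at P5 (2.19 ± 0.32). Their libraries did not overlap. Arc, which acts at synapses, rose (1.52 ± 0.18), and Fos had 12.4, 23.9 and 31.0 CPM at 3 weeks, against 4.68, 4.72 and 5.92 CPM at P5 (2.13 ± 0.52), with the call lost when P5 replicate 3 stood alone. The 1 that fell was Homer1 (-0.40 ± 0.17), whose libraries overlapped and whose call was lost without any 1 library but 3-week replicate 1, with P5 replicate 3 alone, with no filter and in the 6 libraries alone. Of 26 purine and endocannabinoid genes, 14 rose and 4 fell (median 0.50), with Napepld (1.99 ± 0.21), an enzyme of endocannabinoid-like lipids, and Adk (1.38 ± 0.11), which removes adenosine, up and the ATP-gated channel gene P2rx2 down to 0.752, 1.34 and 0.387 CPM at 3 weeks, against 9.30, 7.45 and 8.85 CPM at P5 (-3.39 ± 0.39). Of 32 regulators of G protein signalling and phosphodiesterases, 9 rose and 8 fell (median 0.21), with 5 falling without P5 replicate 1, without 3-week replicate 2 or 3 and with P5 replicate 3 alone. Rgs4 (0.90 ± 0.20), a brake on Gi-coupled receptors, and Pde8a (1.83 ± 0.13), a phosphodiesterase of cyclic AMP, rose and Pde1c fell (-1.10 ± 0.19).

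Lysosomal genes gave one of the most one-sided counts, with 24 up and 1 down of 30 (median 0.70). Gaa, the lysosomal glucosidase, had 854, 1292 and 941 CPM at 3 weeks, against 338, 385 and 329 CPM at P5 (1.55 ± 0.14), the protease inhibitor gene Cst3 had 1447, 1485 and 1490.2 CPM at 3 weeks, against 449.8, 442 and 440.5 CPM at P5 (1.73 ± 0.13), and Ctss, a protease of microglia, had 64.9, 45.3 and 49.8 CPM at 3 weeks, against 12.57, 13.7 and 12.3 CPM at P5 (2.05 ± 0.12). None overlapped. The 1 that fell was Ctsc (-0.81 ± 0.18). Complement genes had 10 of 25 members up and 5 down (median -0.04), C1qa (1.38 ± 0.14), C1qb (1.52 ± 0.10) and the receptor gene Itgam (1.75 ± 0.16), all of microglia, among the first, with the inhibitor genes Csmd1 (-0.51 ± 0.13) and Csmd2 (-0.97 ± 0.20) among the second and C3 not called (-0.04 ± 0.33). C4b rose (1.5005 ± 0.35), though reads may be shared with its copy C4a. MHC class I and peptide loading genes had 10 of 18 members up and 4 down (median 0.60), or 2 without P5 replicate 1 and 1 with P5 replicate 3 alone, with B2m, the shared light chain, at 80.1, 72.2 and 68.1 CPM at 3 weeks, against 31.8, 31.7 and 29.5 CPM at P5 (1.24 ± 0.14) and the transporter genes Tap2 (1.502 ± 0.15) up and Tap1 (-0.72 ± 0.19) down. H2 genes are alike in sequence, so that H2-K1 (1.86 ± 0.17) and H2-D1 (-0.04 ± 0.13, not called) are uncertain. Chaperone genes had 18 of 36 members up and 4 down (median 0.23), and 7 fell under scaling by library totals and 2 without P5 replicate 2, without 3-week replicate 3 or with P5 replicate 3 alone. Cryab, a small heat shock protein of oligodendrocytes and astrocytes, had 77.3, 76.1 and 94.7 CPM at 3 weeks, against 5.05, 5.41 and 5.28 CPM at P5 (3.98 ± 0.17), and shares an exon with Hspb2 on the other strand. Of 31 proteasome genes, 6 rose and 6 fell (median -0.03), with Psmc5 up most (0.73 ± 0.09), and 3 rose without P5 replicate 1 or without 3-week replicate 3 and 2 with P5 replicate 3 alone.

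Hypothalamic transcription factors, which set neuron types before birth, were mostly not called: 11 of 34 fell, 1 rose and 22 were not called (median -0.42). The count that fell was 17 without 3-week replicate 2 and 7 with P5 replicate 3 alone. The 1 that rose was Foxd1, and the count that rose was 0 without P5 replicate 1, without 3-week replicate 2 or with P5 replicate 3 alone and 2 without 3-week replicate 1 or in the 6 libraries alone. Lhx1 fell to 4.27, 7.48 and 5.51 CPM at 3 weeks, against 14.01, 17.8 and 20.3 CPM at P5 (-1.60 ± 0.23), and Lmx1a (-1.59 ± 0.27) and Lhx9 (-1.72 ± 0.37, or -2.32 with P5 replicate 3 alone) fell, while the calls of Isl1 (-1.09 ± 0.23) and Dlx1 (-1.25 ± 0.35) were lost when P5 replicate 3 stood alone. Imprinted genes, expressed from 1 parental copy, had 9 of 29 members up and 12 down (median -0.33). Mkrn3, a brake on puberty in humans and mice, fell to 5.53, 2.82 and 3.24 CPM at 3 weeks, against 46.5, 50.04 and 47.7 CPM at P5 (-3.63 ± 0.22; edgeR adjusted p = 7.48e-13), and had a mean of 3.52 CPM at 4 weeks and 0.788 CPM at 24 months. H19, a noncoding RNA, fell to 2.08, 2.06 and 1.58 CPM at 3 weeks, against 13.4, 34.4 and 29.7 CPM at P5 (-3.76 ± 0.35), and Nnat (-1.48 ± 0.19), Inpp5f (-1.98 ± 0.06) and the cell cycle inhibitor gene Cdkn1c (-1.46 ± 0.36) fell. Dlk1, a membrane protein linked to pubertal timing in humans, had 168, 273 and 205 CPM at 3 weeks, against 50.2, 58.8 and 47.3 CPM at P5 (2.05 ± 0.21), and Impact (1.91 ± 0.09) and Nap1l5 (1.25 ± 0.09) rose. Peg3 rose (0.48 ± 0.19) but lost its call without P5 replicate 1 or 3, without 3-week replicate 2, with P5 replicate 3 alone and under scaling by library totals.

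The genes with the largest changes included some known from single cell types. Etnppl, an enzyme of phospholipid breakdown in astrocytes, had 58.7, 56.1 and 71.8 CPM at 3 weeks, against 0.268, 0.144 and 0.223 CPM at P5 (8.19 ± 0.36). Erbb3, a neuregulin receptor counted above in the FGF and EGF family, had 24.1, 24.4 and 26.4 CPM at 3 weeks, against 0.669, 0.604 and 0.9496 CPM at P5 (5.06 ± 0.19), and Cdh19 (4.42 ± 0.26), Nipal4 (5.66 ± 0.22), Sgk2 (5.146 ± 0.32) and Sec14l5 (4.83 ± 0.36) rose. The log2 fold change of Sgk2 was 6.09 without P5 replicate 1 and 5.86 with P5 replicate 3 alone. Cldn14, a claudin, had 609 counts over the 3-week libraries and 2 over the P5 libraries, a ratio of 324 after scaling (95% counting interval 89.2 to 2678). Erbb3, Cdh19 and Sgk2 are known in the oligodendrocyte lineage, and the myelin genes held 2.37 to 2.92% of gene counts at 3 weeks and 0.0996 to 0.118% at P5; the part of these cells in each result was not tested. Pdlim2 (4.28 ± 0.25) and Rab37 (4.40 ± 0.54) rose as well, Rab37 least in 3-week replicate 2. Fabp7, the lipid-binding protein of radial glia and young astrocytes, fell to 65.0, 65.6 and 75.4 CPM at 3 weeks, against 835, 746 and 759 CPM at P5 (-3.51 ± 0.25). B3gnt5 (-3.85 ± 0.21), an enzyme of glycolipid synthesis, Krt19 (-4.06 ± 0.44), a keratin, and Stag3 (-3.41 ± 0.44), a cohesin subunit known from meiosis, fell. Slc6a4, the serotonin transporter (-7.04 ± 1.60), Lefty2, a secreted TGF-beta inhibitor (-6.02 ± 0.52), Hsd11b2, which inactivates glucocorticoids (-5.35 ± 0.51), Cxadr, an adhesion receptor (-4.49 ± 0.21), and Dkkl1, a secreted protein (-4.38 ± 0.30), fell as well. The log2 fold change of Slc6a4 was -8.33 without 3-week replicate 3 and -6.31 without P5 replicate 1, and that of Hsd11b2 was -6.05 without 3-week replicate 3. Slc6a4 is also on the thalamus list, and the part of thalamus in its change was not tested.

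Transcripts of salivary gland were present at 3 weeks. Bpifa2, a secreted salivary protein, had 33.98, 47.0 and 42.6 CPM at 3 weeks, where its libraries held 3864 counts, and 1 count over the P5 libraries, in P5 replicate 3 (ratio 4107 after scaling, 95% counting interval 737 to 162251). Its log2 fold change was 11.5, and 10.3 with P5 replicate 3 alone. Smr3a had 6.56, 8.89 and 7.05 CPM at 3 weeks, against 0.100, 0 and 0 CPM at P5, from 701 counts at 3 weeks and 3 at P5 (ratio 248, 84.6 to 1207), with a call lost without any 1 P5 library, with P5 replicate 3 alone and with DESeq2. At 4 weeks Bpifa2 had 37.5 and 41.1 CPM in replicates 1 and 2 and 0 in replicates 3 and 4, and no older library exceeded 0.0587 CPM. Of 6 salivary markers tested, 5 rose, and their sum was 76.2 to 99.8 CPM at 3 weeks and 19.01 to 24.6 CPM at P5, most of it at P5 being Amy1 and Lpo. Blood markers rose in 8 of 10 cases, summing to 731 to 1122 CPM at 3 weeks and 399 to 448 CPM at P5. Of ependymal markers 2 of 19 fell and none rose (sum 135 to 159 CPM at 3 weeks and 103 to 241 CPM at P5). Tanycyte markers, of the glia that line the floor of the third ventricle, had 5 of 12 members up and 2 down, at 244 to 314 CPM at 3 weeks and 258 to 267 CPM at P5. Choroid plexus (1 up, 1 down of 12), pituitary (1 up of 8, with Prl at 0 in the 3-week libraries), cortex (2 up, 3 down of 12), striatum (2 up, 3 down of 12), midbrain and hindbrain (1 up, 1 down of 9) and fibroblast markers (3 up, 1 down of 12) had smaller called shares than all genes, while thalamus markers had 5 of 14 members up and 5 down, and pericyte and smooth muscle markers rose in 6 of 12 and fell in 2.

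**Figure D5:**
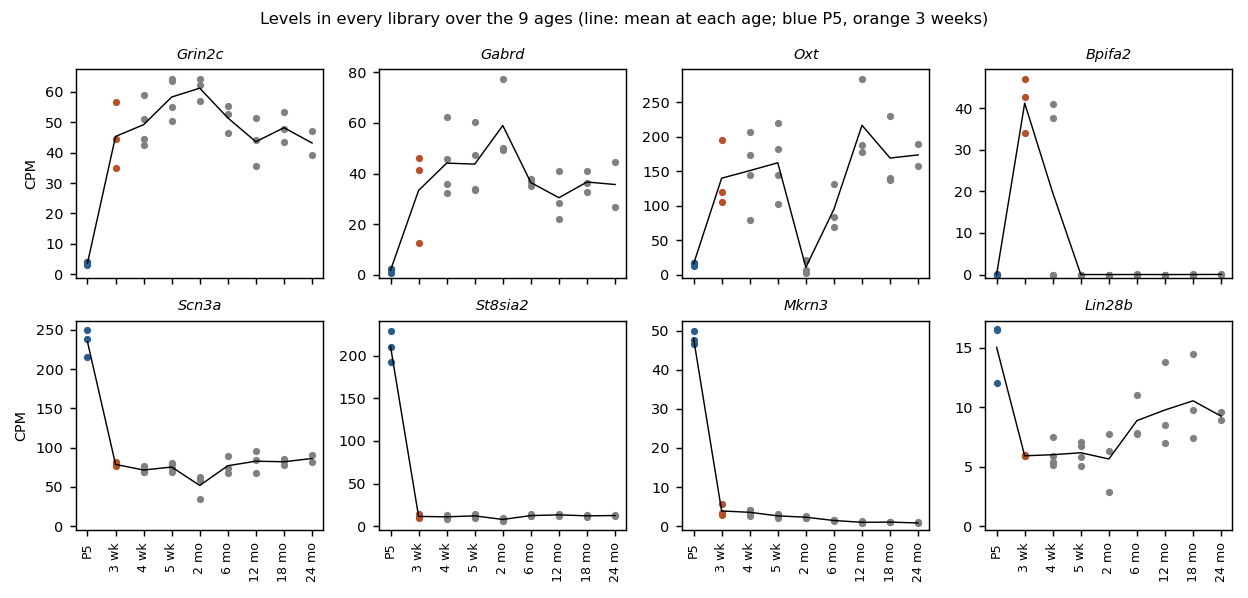
Levels in CPM of 8 genes in every library used at each of the 9 ages, in order from P5 to 24 months; points are libraries (blue P5, orange 3 weeks, grey later ages) and the line joins the means. Grin2c and Gabrd are high and Scn3a, St8sia2 and Mkrn3 low from 3 weeks on, Oxt dips at 2 months, and Bpifa2 is present at 3 weeks and in 2 of 4 libraries at 4 weeks.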

How the data were processed

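Tissue labelled hypothalamus was sequenced in 29 libraries of 9 ages; most library titles carry th, tha or thal. The authors deposited whole-number read counts per gene symbol; per the submitters' processing notes, HISAT2 2.1.0 aligned the reads and HTSeq 0.9.1 counted them, with mm10 and GRCm38 named as builds. For the annotation and the strand setting of the counting, the sources used here give nothing. The 5 HTSeq summary lines, 26.1 to 28.4% of the 6 files compared, stayed out of all totals. From the counts of 24499 symbols, CPM were computed with edgeR 4.0.16 (R 4.3.3) from gene counts after TMM scaling (factors 0.959 to 1.03). Genes passing filterByExpr by age, 16916, entered 1 robust quasi-likelihood fit (glmQLFit, glmQLFTest) with 1 mean per age over 28 libraries; 24-month replicate 5 was left out because it held counts for 1385 genes only. The contrast was 3 weeks minus P5, two-sided, with Benjamini-Hochberg adjustment over all genes tested and a call below 0.05. DESeq2 1.42.0 and other scalings, filters and sets of libraries were alternatives. Both tests were checked on simulated counts with changes planted in some genes at 3 weeks. Those counts held no differences of region or sex between libraries, so the check does not cover such differences. Genes were drawn from the 12 highest and 12 lowest log2 fold changes of non-overlapping called genes with at least 5 CPM at one age, from up to 5 called members of each family in each direction with at least 2 CPM, and from a panel given whatever the result; some of these genes are not reported here. Family lists, panel and cell type markers were chosen with earlier results of these data known, and are described by counts and medians without a test of the list. Promoter sequences are RefSeq's for GRCm38.p6, and gene overlaps were read from GENCODE for GRCm38. Ratios of genes with 1 to 3 counts at an age have an exact 95% interval that covers counting error only.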

Additional observations from a re-analysis of the deposited data

How the results depend on the processing

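Gene calls kept near the 9986 reported (5034 up, 4952 down) with other scaling, DESeq2, other filters and the 6 libraries alone, at 9560 to 10075 genes. Under scaling by library totals, the median log2 fold change moved by -0.08 and 4422 genes rose and 5653 fell. Leaving out 1 library at a time gave 9182 to 9390 calls, 4609 to 4779 up and 4493 to 4638 down. With 24-month replicate 5, which holds counts for few genes, included in the fit, 340 genes were called, 161 up and 179 down. Replicate numbers are shared between the ages by number alone: deviations of same-numbered libraries correlated at 0.06, 0.24 and 0.16, and 3-week replicate 3 correlated best with P5 replicate 1. Among the 6 libraries, 10377 genes were called with a replicate block and 10040 without. With that block the calls of Pomc (1.99, edgeR adjusted p = 0.102), Th (1.80, 0.0951), Aldh1a1 (2.62, 0.0793) and Kiss1 (-1.09, 0.125) were lost, and those of the last 3 were lost in the 6 libraries without it too. Of 330 called genes named in the text, 311 kept the call in each of the 6 fits that left out 1 library, and 300 with P5 replicate 3 alone. Signs turned for 15 genes, among them Kiss1, Npy, Ghsr and Glra3, whose reported log2 fold changes were -1.23, -0.53, 0.51 and 0.39. With P5 replicate 3 alone, log2 fold changes were 0.22 for Acan, -0.035 for Bdnf, 0.26 for Gad1, -0.031 for Ghsr, -0.064 for Glra3, 0.0053 for H2-D1, 0.54 for Kiss1 and 0.076 for Npy; Actl6a had -0.050 under scaling by library totals, and Slc17a6 0.0084 with the replicate block and 0.0056 with all 29 libraries. Leaving out 1 library gave ranges that cross 0 for Acan (-0.20 to 0.026), Actl6a (-0.020 to 0.096), Bmp7 (-0.29 to 0.10), C3 (-0.23 to 0.25), Gabrg1 (-0.085 to 0.0027), H2-D1 (-0.11 to 0.019), Lef1 (-0.033 to 0.62), Lepr (-0.46 to 0.11) and Slc17a6 (-0.16 to 0.20). None of these 15 genes but Kiss1 was called; the cause was not tested. With 3 libraries an age, peptide and regional genes such as Avp, Crh and Th varied between libraries. Whether that spread or depth limits such calls was not tested, nor was it for genes under 3 counts a library.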
